A study of Homo sapiens with 2 samples.

Results

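The genes described here are TGM2, which encodes transglutaminase 2, and 9 genes that are grouped with it as extracellular matrix genes other than collagens: FN1, FSTL1, SPARC, ANTXR1, LOX, LOXL2, TNC, CRISPLD1 and FBN1. They are 10 of the 18944 genes of the deposited RNA-seq count table and were picked by symbol. RNA came from 1 library of H1993 cells that had become resistant to PHA665752, which blocks the receptor tyrosine kinase MET, and from 1 library of the parental H1993 line, a MET-amplified human lung adenocarcinoma line. Selection began at 1 nM PHA665752 and ended at 1 µM, the dose in which the resistant cells were then kept, and a drug-free week preceded the experiments. The sample labels give PHA665752 as the treatment of the resistant library and DMSO as that of the parental library, and do not state whether drug was present at RNA extraction. Whether the resistant line is 1 clone or a pool of cells is not stated. Both libraries come from cells grown in culture in the same medium with serum.

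The genes had been chosen with the difference between these libraries in view, so every ratio of theirs is a description of 2 libraries and no test was made. Each group is 1 library, so no difference has a replicate check. Intervals cover counting error only. A higher total for a gene can come from more RNA per cell or from more cells that express it, and the libraries cannot tell these apart.

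The extracellular matrix is a network of secreted proteins on which cells adhere and from which they receive signals. Fibronectin fibres and fibrillin microfibrils are assembled outside the cell, and enzymes then make them lasting: transglutaminases join glutamine and lysine residues of neighbouring proteins, and lysyl oxidases oxidise lysines of collagen and elastin so that the chains crosslink. Matricellular proteins such as tenascin-C and SPARC add little to the scaffold itself and change how cells attach to it. In carcinomas such genes are often active in the surrounding fibroblasts, and carcinoma cells can express some of them as well.

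The counts summed to 17086748 in the resistant library and 16723181 in the parental library. Levels are in CPM, counts scaled to a common library size after TMM normalization. A gene was tested where it reached 1 CPM in at least 1 library, and was called higher or lower where its log2 ratio, resistant over parental, was 1 or more in size and its 95% counting interval excluded 0. MET itself had 3054 CPM in the resistant library and 4859 CPM in the parental library. The epithelial identity of the line was present in both, with 7 of 7 epithelial markers above 1 CPM. Their summed level was 8516 CPM in the resistant library and 7951 CPM in the parental library. The keratin genes KRT8, KRT18 and KRT7 had log2 ratios of 0.35, 0.33 and 0.05. EPCAM was called lower, at 164 CPM in the resistant and 389 CPM in the parental library. CLDN4 (-0.87), CDH1 (-0.69) and KRT19 (-0.63) also had ratios below 0, without being called. The lung lineage marker NKX2-1 was low, at 5.95 CPM in the resistant and 4.16 CPM in the parental library. NAPSA and SCGB1A1 had 0 counts in both.

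Fibroblast markers were scarce. The 9 markers summed to 15.1 CPM in the resistant library and 20.9 CPM in the parental library, and COL1A1 alone accounted for 14.3 CPM of the resistant and 20.7 CPM of the parental sum. DCN, THY1 and DPT had 0 counts in both libraries, and COL1A2, COL3A1, LUM, PDGFRA and PDGFRB had at most 6 counts in either. Of 5 endothelial markers, CDH5 had 495 counts in the resistant library and 5 counts in the parental library, while PECAM1, VWF, KDR and TEK had at most 1 count in either. Of 5 leukocyte markers, the lysosomal gene CD68 had 31.6 CPM in the resistant and 86.0 CPM in the parental library. PTPRC, the defining surface gene, had 7 counts in the resistant and 21 in the parental library. Whether cells of other types have a part in the differences was not tested.

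Of the 10 genes, 9 passed the filter on low counts. ANTXR1 and CRISPLD1 passed only through the resistant library, so the filter fixed their direction though not its size. The calls came to 7 higher (TGM2, FN1, FSTL1, ANTXR1, LOX, CRISPLD1 and FBN1), 1 lower (TNC) and 1 neither way (LOXL2). Among all 12245 tested genes 12.1% were called higher and 8.29% lower, and the median log2 ratio was 0.00. Since the genes were picked on this contrast, nothing is read from their count against these shares. The shares of all genes called higher and lower were 12.2% and 8.13% with DESeq2 size factors, 11.7% and 8.63% with total counts, and 11.5% and 7.82% with 5 added counts. They were 9.38% and 7.01% among genes at 5 CPM or more and 11.2% and 7.23% among genes with at least 1 count called by the same rule. Stricter rules gave 8.96% and 5.35% with the whole interval beyond 2-fold, 6.32% and 2.93% at 4-fold, and 7.56% and 4.83% by a difference of 1 or more in the deposited log2 values.

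**Figure D1:**
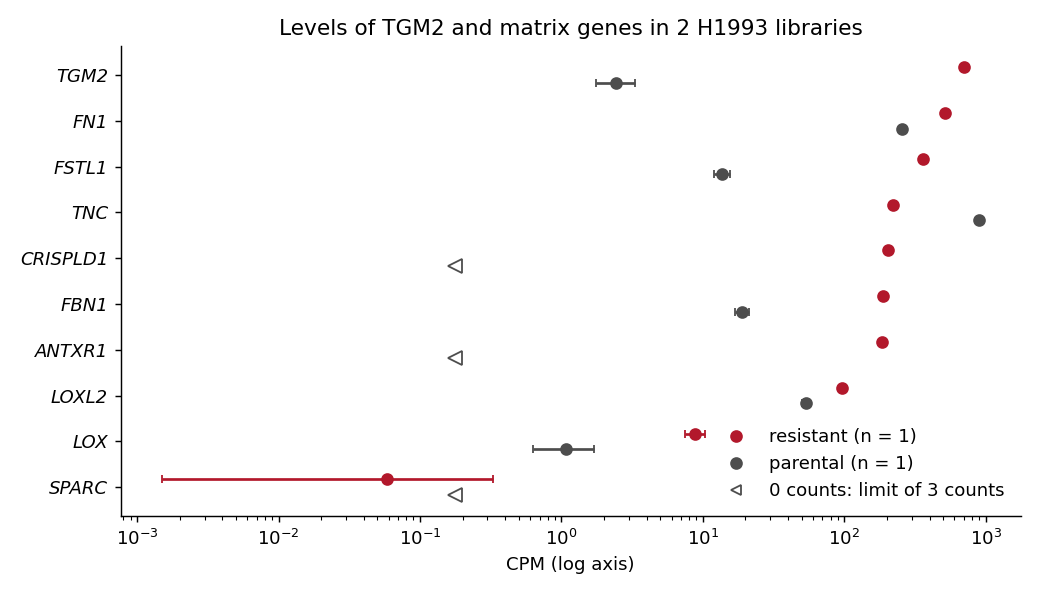
Level of each gene in CPM on a log axis, in the resistant library (red) and the parental library (grey), 1 library each, with exact 95% Poisson intervals of the counts. Open triangles mark 0 counts, drawn at the limit of 3 counts. TGM2 stands at 704 CPM in the resistant and 2.44 CPM in the parental library, and TNC is the 1 tested gene with its resistant point left of its parental point. SPARC, which was not tested, lies at or under the limit in both. Its resistant point, of 1 count, is drawn left of its parental triangle.

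The promoters of the genes that differed most between the libraries, where the RefSeq table for GRCh38.p14 holds them, are shown so that their base composition can be read beside the levels. The table matched 7 of the 10 genes, and TGM2, LOXL2 and CRISPLD1 are named only. Each window runs 5′ to 3′ on the gene's strand, from 250 bases before the annotated start to 50 bases after it. Capitals mark every match to the TATA box TATAAA, the AP-1 site TGANTCA, the SMAD-binding core CAGAC or the general E-box pattern CANNTG, on either strand, and no matches overlap one another. ANTXR1, FSTL1, FBN1 and LOX were higher in the resistant library and TNC was lower.
ANTXR1 (chr2:69012894-69013193, plus strand): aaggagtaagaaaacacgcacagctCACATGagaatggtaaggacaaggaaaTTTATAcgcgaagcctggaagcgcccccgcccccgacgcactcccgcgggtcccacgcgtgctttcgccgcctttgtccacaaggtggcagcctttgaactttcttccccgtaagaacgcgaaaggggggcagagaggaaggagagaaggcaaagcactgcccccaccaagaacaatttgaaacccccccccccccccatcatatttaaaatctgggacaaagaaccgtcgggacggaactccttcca
FSTL1 (chr3:120450943-120451242, minus strand): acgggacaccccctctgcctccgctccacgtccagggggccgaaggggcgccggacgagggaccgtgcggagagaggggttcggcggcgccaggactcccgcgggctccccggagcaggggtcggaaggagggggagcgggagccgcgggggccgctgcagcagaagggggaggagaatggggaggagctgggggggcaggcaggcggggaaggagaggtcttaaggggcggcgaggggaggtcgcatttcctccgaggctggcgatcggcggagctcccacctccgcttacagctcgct
FBN1 (chr15:48644921-48645220, minus strand): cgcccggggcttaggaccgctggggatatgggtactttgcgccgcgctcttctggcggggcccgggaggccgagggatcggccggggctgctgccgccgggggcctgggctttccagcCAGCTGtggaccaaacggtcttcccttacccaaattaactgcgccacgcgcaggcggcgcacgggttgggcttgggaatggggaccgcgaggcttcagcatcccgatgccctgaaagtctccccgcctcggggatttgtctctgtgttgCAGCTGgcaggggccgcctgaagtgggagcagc
LOX (chr5:122078210-122078509, minus strand): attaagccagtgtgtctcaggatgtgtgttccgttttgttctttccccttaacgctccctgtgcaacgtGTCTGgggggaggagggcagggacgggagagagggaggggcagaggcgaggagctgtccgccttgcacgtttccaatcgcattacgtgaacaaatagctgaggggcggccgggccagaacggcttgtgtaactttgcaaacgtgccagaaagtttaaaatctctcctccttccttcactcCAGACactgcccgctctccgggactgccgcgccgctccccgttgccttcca
TNC (chr9:115118108-115118407, minus strand): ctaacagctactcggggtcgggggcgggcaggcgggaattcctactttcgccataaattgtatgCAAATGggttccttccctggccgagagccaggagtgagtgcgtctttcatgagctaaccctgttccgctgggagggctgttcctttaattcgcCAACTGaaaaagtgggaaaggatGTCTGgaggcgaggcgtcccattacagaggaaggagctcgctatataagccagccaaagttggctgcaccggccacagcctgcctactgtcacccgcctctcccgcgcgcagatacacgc

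The E-box was found at 1 place in the ANTXR1 window and at 2 places each in the FBN1 and TNC windows, and once for SPARC, whose window is not shown, against 60.1% of the promoters of tested genes with at least 1 match. CAGAC occurred at 2 places for LOX and at 1 each for TNC and SPARC, against 42.8% of these promoters. TATAAA occurred once, for ANTXR1, as TTTATA on the strand shown and 198 bases before the start, and 5.68% of these promoters hold it. Only these exact letters were searched, so the similar ATATAAG in the TNC and FN1 windows was not counted. TGANTCA occurred in none of the 7 matched windows, and 4.53% of tested promoters hold it. FSTL1 and FN1 held none of the 4 motifs. The GC share of the 7 windows ran from 56.0% for ANTXR1 to 76.7% for FN1, around the tested median of 65.7%. CpG pairs occurred at 0.40 of the number expected from base composition in the SPARC window, with a lower value in only 9.39% of tested promoters, and at 0.73 to 0.86 of it in the other 6. ANTXR1 has another annotated start just downstream, whose window lacks the E-box. LOX has 2 further starts, whose windows each hold 1 E-box, unlike the window shown. These matches describe the letters only.

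TGM2 encodes a calcium-dependent enzyme that crosslinks matrix proteins and, at the cell surface, binds fibronectin and integrins. It had 11948 counts (704 CPM) in the resistant library and 41 counts (2.44 CPM) in the parental library. This was a 289-fold higher level (95% counting interval 213 to 403). The gene stood at rank 163 by CPM in the resistant library and at rank 10775 in the parental library, among 18944 genes. Of the counts of all 10 genes together, TGM2 supplied 28.4% in the resistant library (exact binomial interval 28.0 to 28.8%) and 0.197% in the parental library (0.142 to 0.267%).

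The other transglutaminase genes were near or at 0. Of the 8 other members of the family, 5 had 0 counts in both libraries, among them F13A1, the clotting factor subunit, and TGM3 and TGM4 had at most 1 count in either. TGM1, the keratinocyte enzyme, had 7 counts in the resistant and 18 in the parental library and was called lower (log2 ratio -1.31, or -0.28 with the deposited log2 values). Levels of different genes are set side by side per kb of coding length, which leaves out untranslated bases, so such comparisons depend on the length chosen. On this scale the whole family summed to 342 CPM per kb in the resistant library and 1.65 CPM per kb in the parental library. TGM2 made up 99.9% of the resistant sum and 71.8% of the parental sum.

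The genes closest to TGM2 in level, by the distance between log2 CPM values over the 2 libraries, were TM4SF1, MAP1B and L1CAM. TM4SF1, a tetraspanin-like surface protein gene, lay at a distance of 0.76, with 465 CPM in the resistant and 3.39 CPM in the parental library. MAP1B, a microtubule-binding protein gene, lay at 1.26 and the neural adhesion gene L1CAM at 1.57. Over 2 libraries this measure says only that these genes share a low parental and a high resistant level.

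FN1 encodes fibronectin, the glycoprotein that integrins pull into fibres and that TGM2 can crosslink. Its counts were 8769 (517 CPM) in the resistant library and 4303 (256 CPM) in the parental library. The level was 2.02-fold higher (1.95 to 2.10), at a log2 ratio of 1.02, which is just past the 2-fold rule. Scaled to total counts alone the ratio was 0.996 and FN1 was not called. FN1 supplied 20.8% of the counts of the 10 genes in the resistant and 20.7% in the parental library, so its share was close to the same while the sums differed. Gene-level counts do not separate the splice forms of fibronectin.

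TNC encodes tenascin-C, a large glycoprotein that loosens the attachment of cells to fibronectin. It had 3765 counts (222 CPM) in the resistant library and 14973 counts (889 CPM) in the parental library. This made TNC 4.01-fold lower in resistant cells (3.87 to 4.16), and it was the only one of the 9 tested genes with a ratio below 0. In the parental library it ranked 99 among all genes and made up 72.0% of the counts of the 10 genes (71.4 to 72.6%), against rank 906 and 8.94% (8.67 to 9.22%) in the resistant library. The other tenascin genes, TNR, TNXB and TNN, had 0 counts in both. Genes closest to TNC in level were CAV1 at a distance of 0.42, the desmosomal gene DSP at 0.43 and the hemidesmosomal integrin gene ITGB4 at 0.48.

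Summed over the 10 genes, the counts came to 42094 in the resistant library, or 0.246% of the library, and to 20791 in the parental library, or 0.124%. Without TNC the sums were 38329 counts, or 0.224% of the resistant library, and 5818 counts, or 0.0348% of the parental library. Without TGM2 they were 30146 counts in the resistant and 20750 counts in the parental library. The parental set was thus mostly tenascin-C and fibronectin transcripts, and the resistant set was spread over TGM2, FN1, FSTL1, TNC, CRISPLD1, FBN1 and ANTXR1, with 7.44 to 28.4% each.

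**Figure D2:**
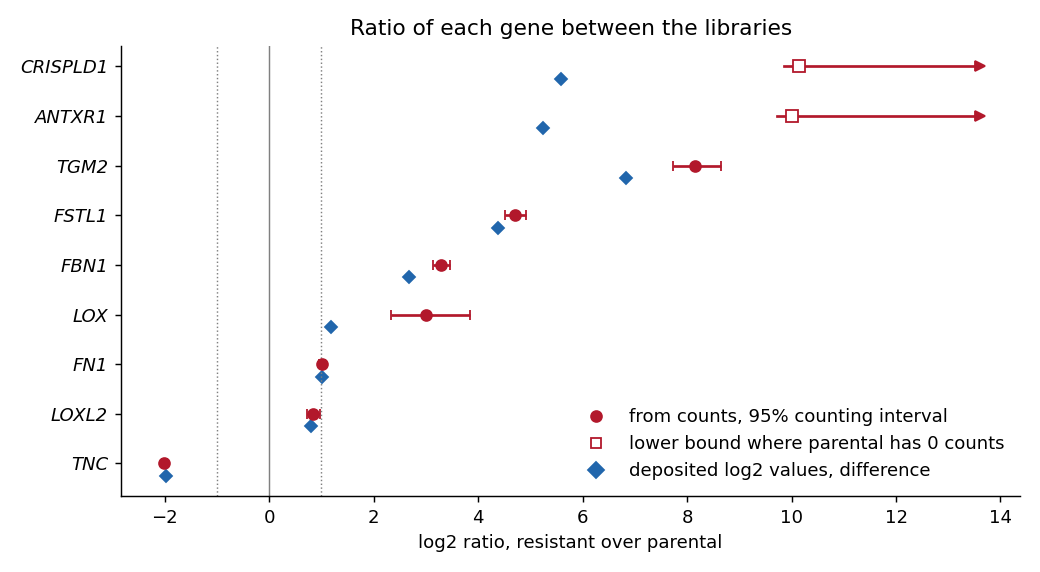
Log2 ratio of the 9 tested genes, resistant over parental. Red circles are ratios from counts with 95% counting intervals, open squares are bounds against 3 counts where the parental library had 0, with arrows for intervals with no upper end, and blue diamonds are differences of the deposited log2 values. The open squares take the resistant count as exact, so their counting intervals begin lower. Dotted lines mark 2-fold: FN1 sits on the upper line at 1.02, LOXL2 at 0.85 lies short of it, and TNC lies at -2.00.

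ANTXR1 encodes an anthrax toxin receptor, a membrane protein that binds collagen through a von Willebrand factor A domain. It had 3132 counts (185 CPM) in the resistant library and 0 counts in the parental library. Set against the 3 counts that a count of 0 allows, its level was 1035-fold higher, with a counting interval from 842-fold. ANTXR2, its paralog, ran the other way, with 523 counts (30.8 CPM) in the resistant and 1226 counts (72.8 CPM) in the parental library. That was a 2.36-fold lower level (2.13 to 2.62). Per kb of coding length ANTXR1 stood at 109 and ANTXR2 at 21.0 in the resistant library, so ANTXR1 supplied 83.9% of the receptor sum there. In the parental library ANTXR2, at 49.6 CPM per kb, supplied all of the counts.

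The WNT co-receptor genes LRP5 and LRP6, whose products have been linked to these receptors, were at log2 ratios of 0.08 and -1.16. LRP6 passed the 2-fold rule on the lower side, with 260 counts in the resistant and 577 in the parental library, and its deposited log2 values differed by -0.80.

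CRISPLD1 encodes a secreted protein of the CAP superfamily whose role in the matrix is little known. It had 3433 counts (202 CPM) in the resistant library and 0 in the parental library. Against 3 parental counts its level was 1135-fold higher, with a counting interval from 922-fold. ANTXR1 and CRISPLD1 were each other's closest genes in level, at a distance of 0.13. PDE3A and COL25A1, which also had 0 parental counts, came next for both. Of the 11 other CAP genes only 3 reached 1 CPM in a library. The nearest relative, CRISPLD2, had 225 counts in the resistant and 172 in the parental library and was not called, at a log2 ratio of 0.37. GLIPR1L2, at 7 counts in the resistant and 21 in the parental library, was lower, and its deposited log2 values differed by -0.45.

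FSTL1 encodes a secreted glycoprotein with a follistatin-like domain that belongs to the SPARC family by sequence. Its counts were 6088 (359 CPM) in the resistant library and 230 (13.7 CPM) in the parental library. The level was 26.3-fold higher (23.0 to 30.1). Among the genes close to it in level were the adhesion protein gene SVEP1, at a distance of 0.69, and the basement membrane gene NID2, at 0.80.

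SPARC itself was not detectable above the counting limit at this depth, with 1 count in the resistant library and 0 in the parental library. Both values lie within the 3 counts that a count of 0 allows, which is 0.177 CPM in the resistant and 0.178 CPM in the parental library, and no fold is given. Other SPARC relatives were expressed. SPOCK2, a testican proteoglycan gene, was 7.49-fold higher (7.02 to 7.99), at 476 CPM in the resistant and 63.6 CPM in the parental library. SPOCK1, its paralog, had 22.9 CPM in the resistant and 103 CPM in the parental library, a 4.52-fold lower level (4.05 to 5.06). SMOC1 passed neither way, at 96.2 CPM in the resistant and 64.0 CPM in the parental library. SPARCL1, SMOC2 and SPOCK3 had at most 4 counts in either library.

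Among other genes with follistatin domains, FST, which encodes the activin-binding protein follistatin, was 46.8-fold lower in the resistant library (22.5 to 117), with 7 counts there and 325 in the parental library, and was tested only through the parental library. FSTL3 was 2.29-fold higher and FSTL4 3.34-fold higher. Follistatin and FSTL1 transcripts therefore lay on opposite sides, and AGRN, the most abundant of this list, differed little, at a log2 ratio of -0.20.

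LOX encodes lysyl oxidase, the enzyme after which the family is named. It had 150 counts (8.84 CPM) in the resistant library and 18 counts (1.07 CPM) in the parental library, an 8.26-fold higher level (5.05 to 14.3). The wide interval reflects the few counts. LOXL2, a relative that also acts on basement membrane collagen, had 1647 counts (97.0 CPM) in the resistant and 907 counts (53.9 CPM) in the parental library. Its level was 1.80-fold higher (1.66 to 1.96), and the whole interval stayed short of 2-fold.

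None of the other lysyl oxidase genes was called higher. LOXL1, which acts on elastic fibres, had 23 counts (1.35 CPM) in the resistant library and 823 counts (48.9 CPM) in the parental library, a 36.1-fold lower level (23.9 to 57.2). LOXL3 and LOXL4 were not called, at log2 ratios of -0.30 and 0.56. Per kb of coding length the 5 genes summed to 53.0 CPM per kb in the resistant and 56.2 CPM per kb in the parental library. The sums thus differed little while the makeup did not stay the same. LOXL2 supplied 78.8% of the sum in the resistant library and 41.3% in the parental library, LOX 13.3% of the resistant and 1.52% of the parental sum, and LOXL1 1.48% of the resistant and 50.5% of the parental sum.

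FBN1 encodes fibrillin-1, the main protein of microfibrils, on which elastin is laid down and which hold latent TGF-beta. Its counts were 3161 (186 CPM) in the resistant library and 319 (18.9 CPM) in the parental library. The level was 9.83-fold higher (8.76 to 11.1). FBN2, its paralog, was 5.47-fold higher (5.16 to 5.81) and more abundant in both libraries, at 48.0 CPM per kb of coding length in the resistant and 8.77 CPM per kb in the parental library. FBN1 had 21.6 CPM per kb in the resistant and 2.20 CPM per kb in the parental library. FBN1 thereby supplied 31.1% of the fibrillin sum in the resistant and 20.1% in the parental library. ELN, the elastin gene, had 1 count in the resistant and 0 in the parental library, so fibrillin transcripts were present with hardly any elastin transcript.

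**Figure D3:**
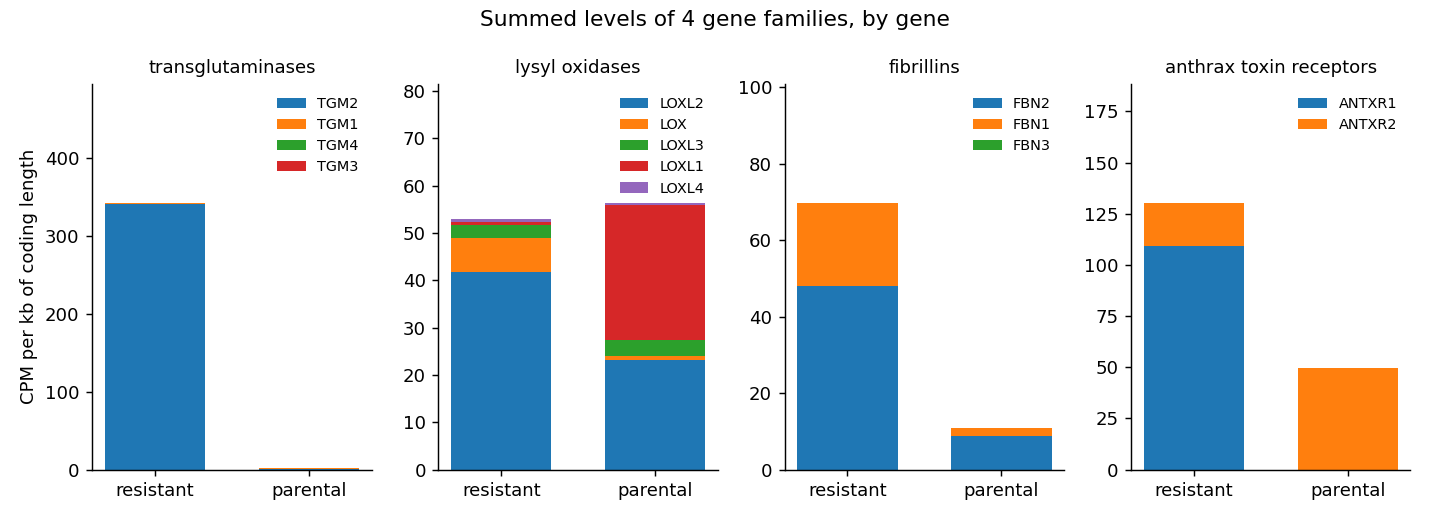
Summed CPM per kb of coding length of 4 gene families, each bar split by gene, in the resistant library (left bar) and the parental library (right bar), 1 library each. The transglutaminase bar is nearly all TGM2 at 342 CPM per kb in the resistant library, while the lysyl oxidase bars are close in height, at 53.0 CPM per kb in the resistant and 56.2 in the parental library, with LOXL1 large in the parental library only.

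Ordered by CPM per kb of coding length, FSTL1 (388) and TGM2 (342) led the resistant library, followed by CRISPLD1 (135), ANTXR1 (109), FN1 (69.5), LOXL2 (41.8), TNC (33.6), FBN1 (21.6), LOX (7.06) and SPARC (0.0648). The parental library ran TNC (135), FN1 (34.4), LOXL2 (23.2), FSTL1 (14.8), FBN1 (2.20), TGM2 (1.18) and LOX (0.855), with the other 3 at 0. The deposited log2 values, which from the counts also scale with gene length, gave the same parental order. In the resistant library they put 5 of the 10 genes at the same place, with TGM2 first and FSTL1 the next. Per kb of the longest protein-coding transcript TGM2 (139) also came before FSTL1 (60.4) there, so the order of these genes depends on the length used.

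Reads could be shared with overlapping genes, since the strand setting of the counting is not stated. In the GENCODE 29 annotation TGM2 overlaps RPRD1B on the opposite strand, LOX overlaps SRFBP1 on the opposite strand and LOXL2 overlaps ENTPD4 on the same strand. RPRD1B had 1203 counts in the resistant and 1656 in the parental library. SRFBP1 had 417 counts in the resistant and 382 in the parental library, and ENTPD4 had 864 in the resistant and 965 in the parental library. None of these 3 was called. DEC1, which overlaps TNC on the opposite strand, had 0 counts in both.

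The genes next to the 9 tested genes on the chromosomes mostly did not differ with them. Of 54 tested neighbours, 3 on either side of each gene, 7 (13%) were higher and 3 (5.56%) lower in the resistant library, beside 12.1% and 8.29% of all tested genes, and their median log2 ratio was -0.12. All 6 neighbours of TGM2 on chromosome 20 lay between -0.52 and -0.01. The 6 neighbours of LOX on chromosome 5 lay between -0.39 and 0.49. Beside FBN1 on chromosome 15, the semaphorin gene SEMA6D (3.45) and MYEF2 (1.94) were higher and SHC4 (-1.35) was lower. Beside TNC on chromosome 9, the cytokine gene TNFSF15 was lower as TNC was, with 59 counts in the resistant and 616 in the parental library. PAPPA, the protease gene on the other side, was higher, with 945 counts in the resistant and 53 in the parental library. Beside ANTXR1 on chromosome 2, CNRIP1, with 22 counts in the resistant library and 0 in the parental library, and APLF (1.13) were higher, and AAK1 (-1.11) was lower. ZFHX4 (1.47) was the 1 called neighbour of CRISPLD1 on chromosome 8, and FN1 on chromosome 2 and LOXL2 on chromosome 8 had none.

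**Figure D4:**
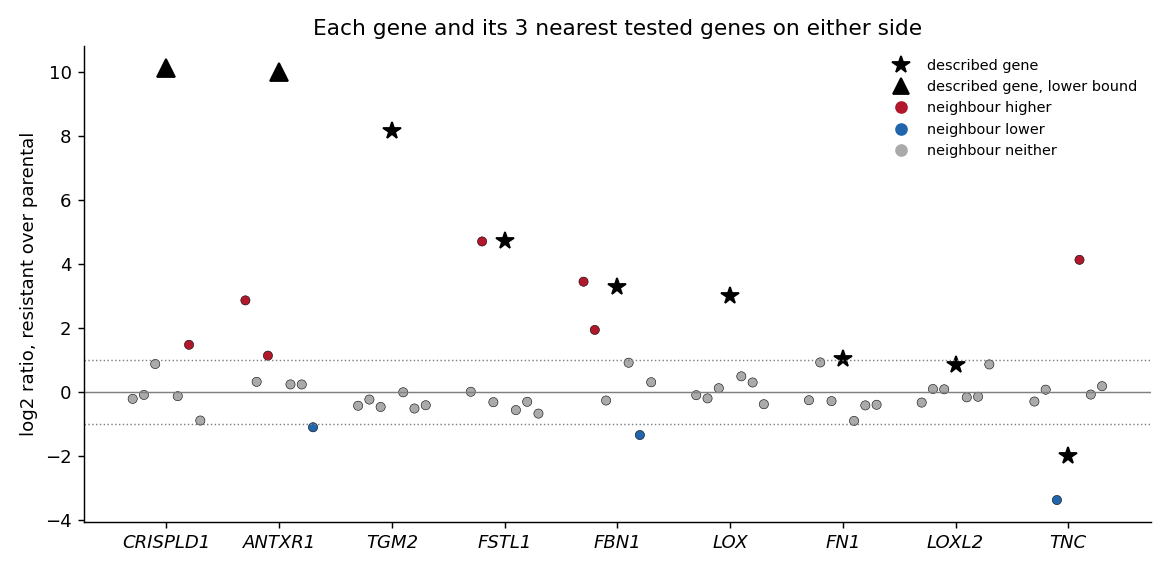
Log2 ratio, resistant over parental, of each described gene (star, or triangle for a bound against 3 counts) and of its 3 nearest tested genes on either side in RefSeq gene order (circles, red higher, blue lower, grey neither). The circles around TGM2, LOX, FN1 and LOXL2 are all grey and lie between -0.91 and 0.92.

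Beyond the 10 genes, 15 fixed lists of matrix and matrix receptor genes held 165 other genes in the table, of which 85 were tested. Of these 33 (38.8%) were higher and 14 (16.5%) lower in the resistant library, with a median log2 ratio of 0.48, against 12.1%, 8.29% and 0.00 for all tested genes. Of the 85, 14 were tested only through the resistant library and 4 only through the parental library. The lists too were drawn up with earlier results of these data known. Their counts, together or list by list, are therefore a description, and nothing is read from them against the shares of all genes.

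Genes that process lysyl oxidase and collagen were higher for 4 of 12 tested and lower for 0, with a median of 0.70. Among all tested genes 12.1% were higher and 8.29% lower. TLL1 and PCOLCE, 2 of the 12, were tested only through the resistant library. TLL1, a tolloid-like protease gene, was 79.9-fold higher (38.5 to 200), at 564 counts in the resistant and 7 in the parental library. SERPINH1, the collagen chaperone gene, was 32.6-fold higher (25.2 to 42.9), at 116 CPM in the resistant and 3.56 CPM in the parental library, and the prolyl hydroxylase gene P3H1 was 4.96-fold higher. BMP1, which encodes a protease that activates lysyl oxidase, was not called, at -0.74, and neither was PLOD3, at -0.32, which had the highest mean of both libraries. PLOD2, another lysyl hydroxylase gene and the most abundant of the list in the resistant library, was 3.08-fold higher (2.91 to 3.27), at 278 CPM in the resistant and 90.2 CPM in the parental library.

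Elastic fibre genes other than FBN1 were higher for 4 of 11 tested and lower for 1, beside 12.1% higher and 8.29% lower among all tested genes. The higher ones beside FBN2 were FBLN2 (9.11-fold, 6.51 to 13.1), EFEMP1 (5.88-fold, 5.01 to 6.93) and LTBP4, and the lower one was LTBP3 (2.25-fold lower, 2.13 to 2.38). EFEMP2 and FBLN5, whose products bring lysyl oxidase to elastin, had at most 10 counts in either library. Thrombospondin-1, THBS1, was 2.63-fold higher (2.46 to 2.81).

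Of 11 tested receptor genes of fibronectin and TGM2, 0 were called higher and 3 lower, with a median log2 ratio of -0.64, beside 12.1% higher, 8.29% lower and a median of 0.00 among all tested genes. ITGB6, the partner chain of the epithelial fibronectin receptor, had 0 counts in the resistant library and 529 counts in the parental library. Against 3 resistant counts it was 178-fold lower, with a counting interval from 144-fold, and it was tested only through the parental library. ITGA5, the alpha chain of the classical fibronectin receptor, was 2.04-fold lower (1.78 to 2.35), though its deposited log2 values differed by -0.89, and SDC3 was 2.78-fold lower (2.37 to 3.27). ITGB1, the most abundant, had 760 CPM in the resistant and 853 CPM in the parental library. ITGAV (0.86) and LRP1 (0.81), which takes up TGM2 from the cell surface, had ratios above 0 without being called.

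Other matrix glycoproteins were higher for 12 of 17 tested and lower for 2, with a median of 2.09, beside 12.1% higher and 8.29% lower among all tested genes. Of the 17, 6 were tested only through the resistant library. IGFBP7 had 574 counts in the resistant library and 0 in the parental library. Against 3 parental counts it was 190-fold higher, with a counting interval from 154-fold. SPP1, the osteopontin gene, had 677 counts in the resistant and 3 in the parental library, a 224-fold difference (76.3 to 1088), and VTN, the vitronectin gene, had 604 in the resistant and 5 in the parental library. NID2, the most abundant in the resistant library, was 38.0-fold higher (32.1 to 45.5), at 305 CPM in the resistant and 8.02 CPM in the parental library. The lower genes were VWA1 (2.87-fold), the most abundant in the parental library at 118 CPM, and RELN (3.08-fold, or -0.90 with the deposited log2 values). Small leucine-rich proteoglycans, which bind collagen in connective tissue, had 0 of 15 genes at 1 CPM in either library.

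**Figure D5:**
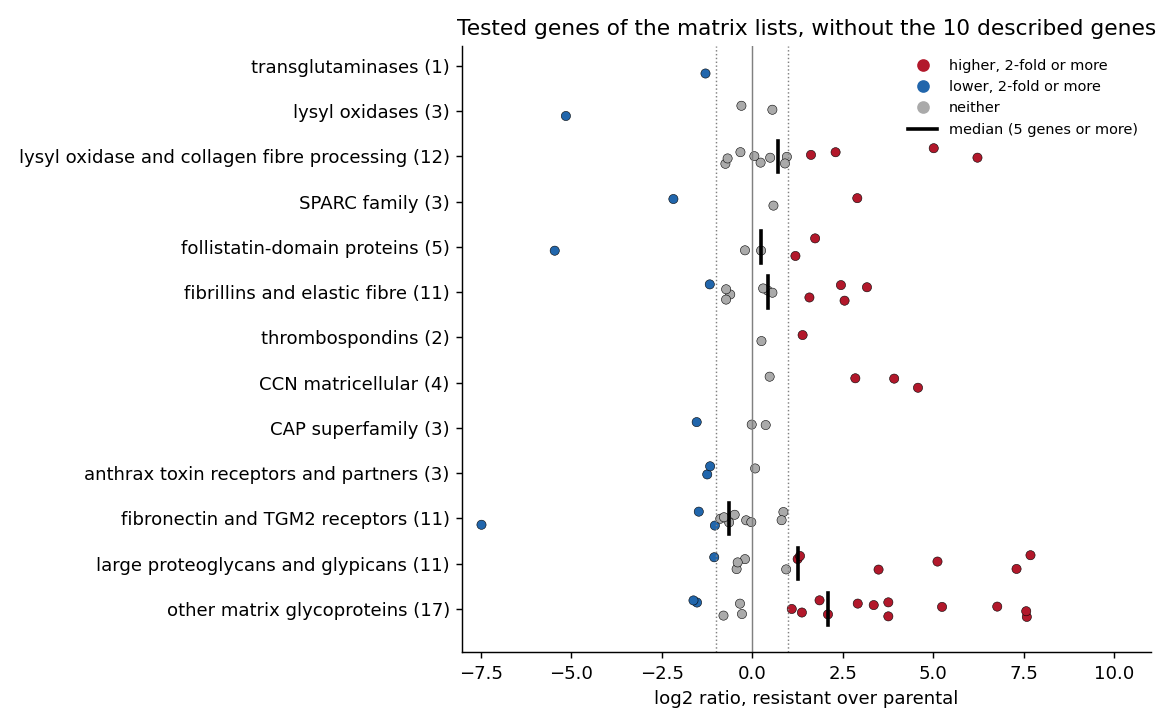
Log2 ratio, resistant over parental, of the tested genes of each fixed list without the 10 described genes, with the number of tested genes in brackets and the median as a bar where there are 5 or more. Genes with 0 counts in 1 library are drawn at their bound against 3 counts. Most points of other matrix glycoproteins lie right of the dotted 2-fold line and most of the fibronectin and TGM2 receptors left of 0.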

How the data were processed

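Per the file headers, the authors deposited raw counts per gene symbol and normalized log2 values for 1 resistant and 1 parental library of H1993 RNA, made with a TruSeq kit per the labels' protocols. The submitters' processing notes name FastQC and STAR and the builds GRCh38 and hg19; counting program, annotation and strand setting are not given in the sources used here. How the deposited log2 values were normalized is not stated. From the values, 2 to that power minus 1, per count, tracks gene length (r = 0.86 on log scales between implied and GENCODE 29 transcript length, across 8204 genes, which are not replicates).

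Counts were scaled by TMM (edgeR 4.0.16, R 4.3.3). Log2 ratios are resistant over parental with 0.5 added to counts; fold values use counts as they are. Intervals are exact 95% conditional binomial (Clopper-Pearson, scipy 1.17.1), Poisson for levels, and cover counting error only. The scaling, the ratio intervals and the calls were tested on simulated counts, and the other steps were not. Coding lengths came from GENCODE 29, gene order and promoters from RefSeq GRCh38.p14, and older symbols were matched through RefSeq synonyms. Alternatives were DESeq2 1.42.0 size factors, total counts, other filters, added counts, size rules and the deposited log2 values.

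Named are the 10 genes; of each list the most abundant gene and up to 3 called genes per direction by interval bound; the 3 nearest genes in level for some; and called neighbours. Further genes were named after their values were seen. The 10 genes and the lists were chosen with earlier results of these data known. Some genes that this rule names are not reported here.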

Additional observations from a re-analysis of the deposited data

How the results depend on the processing

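No paired analysis was possible because each group has 1 library, and no library could be left out. The calls of the 10 genes were 7 higher and 1 lower under DESeq2 size factors, the 5 CPM and 1 count filters, 5 added counts and the deposited log2 values. Scaling to total counts, the whole interval beyond 2-fold and a 4-fold rule each left 6 higher, without FN1, and 1 lower. No ratio changed sign. The log2 ratios of ANTXR1 and CRISPLD1, whose parental counts are 0, depend on the added count and are no bounds: they were 12.60 and 12.73 with 0.5 added and 9.28 and 9.41 with 5. With the deposited log2 values, where small levels are pulled together, the differences were 5.24 for ANTXR1, 5.59 for CRISPLD1, 6.83 for TGM2, 4.38 for FSTL1, 2.68 for FBN1 and 1.18 for LOX. Over all genes, 1480 higher and 1015 lower became 926 higher and 591 lower with the deposited log2 values and 774 higher and 359 lower at 4-fold, and 655 were lower with the whole interval beyond 2-fold. Of the fixed lists, 14 lower genes became 8 with the deposited log2 values, 4 at 4-fold and 9 with the whole interval beyond 2-fold. The cause was not tested. Depth limits LOX, with 18 parental counts, and SPARC.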

Other observations

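Proteoglycans that carry long sugar chains, and the glypicans that sit on the cell surface, were higher in the resistant library for 6 of 11 tested genes and lower for 1, with a median log2 ratio of 1.26, beside 12.1% higher and 8.29% lower among all tested genes. The filter bears on this count, since 4 of the 11 were tested only through the resistant library. VCAN, the versican gene, was 34.9-fold higher (29.3 to 41.8), at 269 CPM in the resistant and 7.72 CPM in the parental library. Glypicans split. GPC3 had 477 counts in the resistant library and 0 in the parental library. Against 3 parental counts it was 158-fold higher, with a counting interval from 128-fold. GPC6 had 311 counts in the resistant library and 1 in the parental library. GPC4 was 2.07-fold lower (1.84 to 2.32), or -0.95 with the deposited log2 values. AGRN, the most abundant, passed neither way at 647 CPM in the resistant and 742 CPM in the parental library. HSPG2, the perlecan gene, lay at 0.94 and was among the 3 genes closest to FN1 in level.

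CCN genes, which encode small matricellular proteins that bind integrins, were higher for 3 of 4 tested and lower for 0, beside 12.1% higher and 8.29% lower among all tested genes, and 1 of the 4, CTGF, was tested only through the resistant library. CYR61, the most abundant, was 7.22-fold higher (6.32 to 8.27), at 108 CPM in the resistant and 14.9 CPM in the parental library. NOV was 24.4-fold higher (16.0 to 39.3), with 542 counts in the resistant and 22 in the parental library, and CTGF had 53 in the resistant and 3 in the parental library. WISP2 was not called, at 58 counts in the resistant and 41 in the parental library.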
